A study of Mus musculus with 4 samples.

Results

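The 47 genes described here encode the core machinery that copies DNA. They were taken by name from the 13815 genes of the mRNA table: the MCM proteins, the subunits of the origin recognition complex, GINS, replicative polymerases, primase and clamp loader, the RPA genes, Pcna, Cdc6, Cdc7, Cdc45, Cdt1, Dbf4, Fen1 and Lig1. Libraries of polyadenylated RNA came from 3 kinds of mouse embryonic stem cell, Dgcr8-/- (Dgcr8 knockout), Dicer-/- (Dicer knockout) and WT, and a small RNA library from WT cells. The labels give the strain V6.5 for every sample and describe culture in DMEM with serum and ESGRO, a preparation of leukaemia inhibitory factor. DGCR8 works with Drosha at the first cut of miRNA production and Dicer makes the second, and most miRNAs need both; miRNA levels in the knockouts were not analysed here. The sources used here do not give the knockout alleles, the number of clones or the use of feeder cells. Each group has 1 library, so there is no replicate error, no test between groups and no p-value. Line, culture and genotype cannot be told apart.

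Replication starts with the origin recognition complex, which with CDC6 and CDT1 loads the MCM2-7 ring onto DNA in G1. The kinase CDC7-DBF4 and the factors CDC45 and GINS then turn the ring into the active CMG helicase. Polymerase alpha with primase lays primers, polymerases epsilon and delta extend the new strands on the PCNA clamp, which the RFC complex loads, and FEN1 and LIG1 join Okazaki fragments. Embryonic stem cells have a short G1 phase and spend much of their cycle in S phase, and many genes of this machinery are transcribed under E2F control. The Mcm7 gene also carries, in an intron, a cluster of miRNAs that includes miR-106b, miR-93 and miR-25.

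The mRNA libraries hold 11123498 counts for Dgcr8-/- cells, 12309100 for Dicer-/- cells and 9931625 for WT. Levels are in CPM, counts per 1000000 counts of the library. Ratios of CPM are given with exact conditional binomial 95% intervals that cover counting error only. Every member had at least 38 counts in each library, and Pold4 and Mcm9 had the fewest. The targeted transcripts were at 20.9, 84.7 and 52.7 CPM for Dgcr8 in Dgcr8-/- cells, Dicer-/- cells and WT, and at 128, 20.1 and 79.9 CPM for Dicer1 in the same order. All 7 stem cell markers examined were at 310.9 CPM or more in Dgcr8-/- cells, 280.3 CPM or more in Dicer-/- cells and 292 CPM or more in WT. Their sum was lower in the knockouts, at 7102 CPM in Dgcr8-/- cells and 7965 CPM in Dicer-/- cells, against 10824 CPM in WT. Tdgf1 was 3.15-fold and 3.53-fold lower, and Dppa5a 2.05-fold and 1.32-fold lower. Sox2 went the other way, at ratios to WT of 1.37 and 1.39, and Nanog was at 1.43 and 1.03. Of the 7 markers, 4 were above WT and 3 below in Dgcr8-/- cells, and 2 above and 5 below in Dicer-/- cells. Of 9 feeder fibroblast markers 4 have a row. These summed to 5.30 CPM in Dgcr8-/- cells and 4.14 CPM in Dicer-/- cells, against 31.3 CPM in WT. Thy1, the highest in WT, had 23 counts in Dgcr8-/- cells and 16 in Dicer-/- cells, against 175 in WT. Col1a1 had 6, 5 and 97 counts in the same order, and S100a4 had 0, 6 and 11. Fbn1, the highest in both knockouts, had 30, 24 and 28 counts, and the intervals of both its ratios to WT include 1. The part of these marker differences in the results below was not tested.

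As a group the replication genes were lower in both knockouts than in WT, and more so in Dicer-/- cells. Their summed level was 7302 CPM in Dgcr8-/- cells and 5994 CPM in Dicer-/- cells, against 7969 CPM in WT. Their median log2 ratio to WT, taken on log2(CPM + 1), was -0.23 in Dgcr8-/- cells and -0.45 in Dicer-/- cells. All 13223 genes tested in the Dgcr8-/- pair had a median of 0.11, and all 13403 tested in the Dicer-/- pair had 0.10; a gene was tested when it reached 1 CPM in either library. Median-ratio scaling moved the median of all genes by -0.13 and -0.11, and TMM scaling by -0.11 and -0.10, so the distance of the members' median from it, -0.35 and -0.55, hardly depends on the scaling. In bulk RNA, fewer cells that express a gene and less RNA per cell cannot be told apart.

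By any amount, 30 of 47 members were lower in Dgcr8-/- cells than in WT and 17 higher, beside 43.8% and 56.2% of all genes tested. In Dicer-/- cells 35 were lower and 12 higher, beside 45.1% and 54.9%. With TMM scaling 36 members were lower and 11 higher in each knockout. That scaling also moved the median of all genes tested, to 0.004 in Dgcr8-/- cells and -0.0002 in Dicer-/- cells. The shares of all genes just given do not apply to it, and shares under it were not computed. At the 2-fold line more members were counted in Dicer-/- cells, a difference in counts that was not tested. In Dgcr8-/- cells 2 members (4.26%) were at least 2-fold lower, Gins2 and Orc1, beside 8.02% of all genes tested, and 0 were at least 2-fold higher, beside 14.3%. In Dicer-/- cells 10 members (21.3%) were at least 2-fold lower, beside 9.7% of all genes tested, and 0 were at least 2-fold higher, beside 16%. These 10 were Gins2, Gins3, Gins4, Mcm4, Mcm5, Orc1, Orc6, Rfc2, Lig1 and Pold4. Most lie close to the line: for 7 of the 10, and for both in Dgcr8-/- cells, the counting interval reaches 2-fold. At 1.5-fold, 18 members were lower in Dicer-/- cells, beside 19.7% of all genes, and 7 in Dgcr8-/- cells, beside 17.7%. Mcm7 alone was at least 1.5-fold higher in Dgcr8-/- cells, beside 27.1% of all genes, and Mcm7 alone in Dicer-/- cells, beside 28%.

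**Figure D1:**
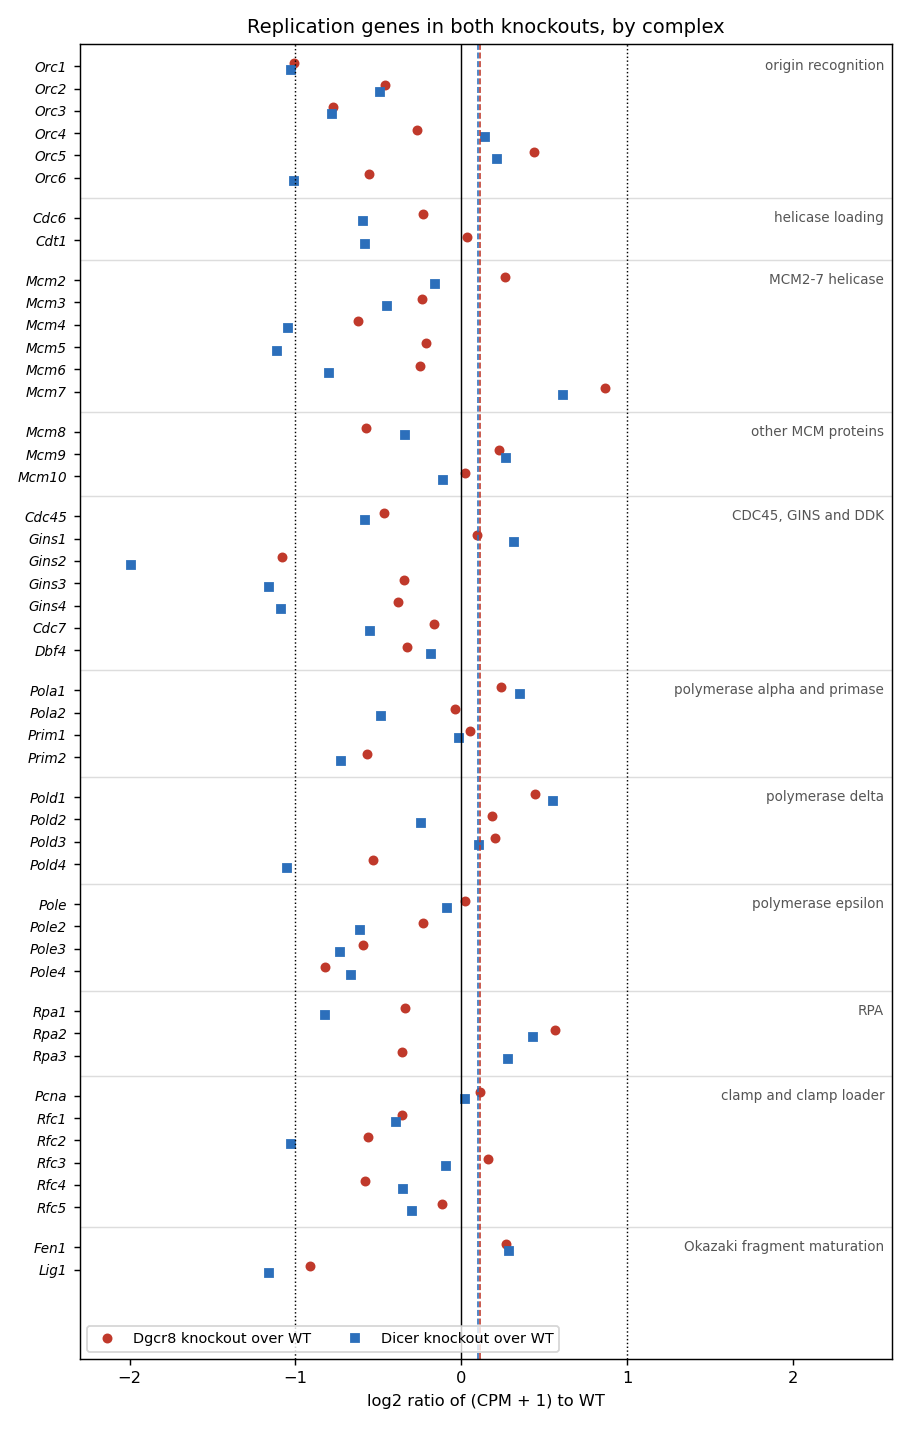
Log2 ratio of (CPM + 1) of each replication gene to WT in Dgcr8-/- cells (red circles) and Dicer-/- cells (blue squares), grouped by complex. Dotted lines mark 2-fold, dashed lines the median of all genes tested (0.11 and 0.10); Gins2 is the lowest point at -1.99 and Mcm7 the highest at 0.87.

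**Figure D2:**
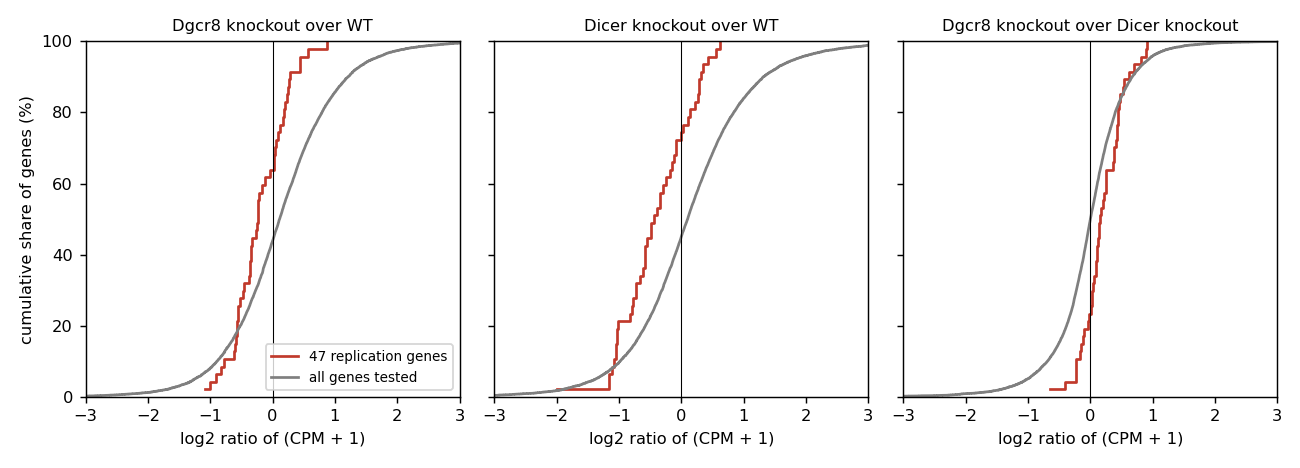
Cumulative share of genes (percent) against the log2 ratio of (CPM + 1) for the 47 replication genes (red) and all genes tested (grey) in each pair of libraries. The red curves over WT lie left of the grey ones around 0, with medians of -0.23 and -0.45 against 0.11 and 0.10. They run from -1.08 to 0.87 in Dgcr8-/- cells and from -1.99 to 0.62 in Dicer-/- cells.

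The origin recognition complex marks where replication can start. Its 6 subunits summed to 454 CPM in Dgcr8-/- cells and 418 CPM in Dicer-/- cells, against 626 CPM in WT. Orc1, the subunit whose level varies with the cell cycle, had 45.4 CPM in Dgcr8-/- cells and 44.7 CPM in Dicer-/- cells, against 92.2 CPM in WT. It was 2.03-fold lower (95% interval 1.82 to 2.27) in Dgcr8-/- cells and 2.06-fold lower (1.86 to 2.30) in Dicer-/- cells, and the knockouts were nearly equal. Orc3 showed the same arrangement, at 57.5 CPM in Dgcr8-/- cells and 57.3 CPM in Dicer-/- cells, against 99.2 CPM in WT, and Orc2 was at 105, 102 and 144 CPM in the same order. Orc6, the smallest subunit, had 124 CPM in Dgcr8-/- cells and 90.3 CPM in Dicer-/- cells, against 183 CPM in WT. Both knockouts were thus below WT for Orc1, Orc2, Orc3 and Orc6.

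Orc5 and Orc4 did not follow. Orc5 was higher in both knockouts, at 85.8 CPM in Dgcr8-/- cells and 73.4 CPM in Dicer-/- cells, against 63.03 CPM in WT. Orc4 had 37.3 CPM in Dgcr8-/- cells and 49.9 CPM in Dicer-/- cells, against 45.0 CPM in WT, so WT lay between the knockouts. Within the complex, the share of counts from Orc5 was 18.9% in Dgcr8-/- cells and 17.6% in Dicer-/- cells, against 10.1% in WT, and that from Orc1 was 9.99% and 10.7%, against 14.7%. Such shares do not depend on library scaling, though longer transcripts weigh more in them.

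CDC6 and CDT1 load the helicase on the origin complex. Cdc6 had 81.6 CPM in Dgcr8-/- cells and 63.4 CPM in Dicer-/- cells, against 96.0 CPM in WT. Cdt1 had 247 CPM in Dgcr8-/- cells and 160.2 CPM in Dicer-/- cells, against 240.4 CPM in WT. Cdt1 was thus low in Dicer-/- cells, at a ratio of 0.666 to WT (0.627 to 0.707), while the interval of the Dgcr8-/- ratio, 0.971 to 1.08, includes 1.

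The MCM2-7 ring is built of 6 related ATPases, 1 copy of each. Mcm7 was the member furthest above WT in both knockouts, at 792 CPM in Dgcr8-/- cells and 664 CPM in Dicer-/- cells, against 433 CPM in WT. The ratio was 1.83 (1.76 to 1.90) in Dgcr8-/- cells and 1.53 (1.48 to 1.59) in Dicer-/- cells. Among all genes tested this was not extreme, since 17.7% had a higher log2 ratio in Dgcr8-/- cells and 27.0% in Dicer-/- cells; it stands out only beside the other replication genes.

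Mcm3, Mcm4, Mcm5 and Mcm6 were below WT in both knockouts. Mcm5 had 622 CPM in Dgcr8-/- cells and 333 CPM in Dicer-/- cells, against 721 CPM in WT, so the Dicer-/- library was the low one, 2.17-fold below WT (2.09 to 2.25). Mcm4 had 267 CPM in Dgcr8-/- cells and 199 CPM in Dicer-/- cells, against 411 CPM in WT. Mcm6 had 477 CPM in Dgcr8-/- cells and 326 CPM in Dicer-/- cells, against 568 CPM in WT. For these subunits Dgcr8-/- cells lay between Dicer-/- cells and WT. Mcm3 had 511 CPM in Dgcr8-/- cells and 441 CPM in Dicer-/- cells, against 601 CPM in WT. Mcm2 was the subunit on opposite sides of WT, at 442 CPM in Dgcr8-/- cells and 329.9 CPM in Dicer-/- cells, against 368 CPM in WT.

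The ring as a whole summed to 3110.3 CPM in Dgcr8-/- cells and 2293 CPM in Dicer-/- cells, against 3102 CPM in WT; with TMM scaling, chosen for these sums after seeing the data, the ratio to WT was 0.925 in Dgcr8-/- cells. Without Mcm7, the other 5 subunits summed to 2319 CPM in Dgcr8-/- cells and 1628 CPM in Dicer-/- cells, against 2668 CPM in WT. Mcm7 made up 25.4% of MCM2-7 counts in Dgcr8-/- cells (exact 95% interval 25.0 to 25.9) and 29.0% in Dicer-/- cells (28.45 to 29.5), against 14.0% in WT (13.6 to 14.4). Relative to the sum of its 5 partners, Mcm7 was 2.10 times its WT level in Dgcr8-/- cells and 2.51 times in Dicer-/- cells, a quantity that library scaling cannot change. No other subunit gained as much: the share of Mcm2 was 14.2% in Dgcr8-/- cells and 14.4% in Dicer-/- cells, against 11.9% in WT, and that of Mcm4 was 8.58% and 8.66%, against 13.2%.

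**Figure D3:**
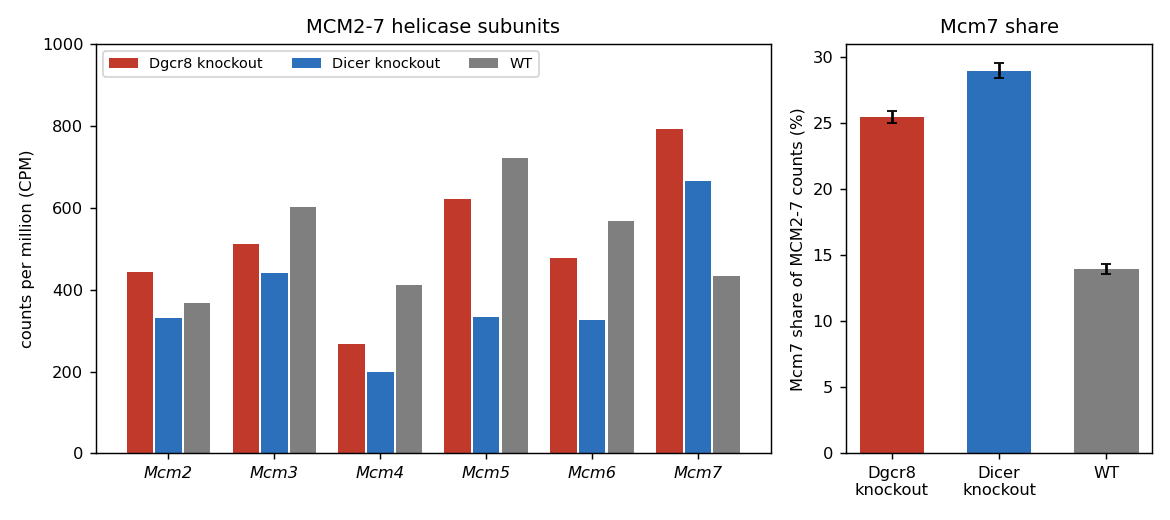
Left, level in CPM of each MCM2-7 subunit in Dgcr8-/- cells (red), Dicer-/- cells (blue) and WT (grey), 1 library each. Right, Mcm7 as a percentage of the MCM2-7 counts of each library with exact 95% counting intervals, at 25.4%, 29.0% and 14.0%.

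Mcm7 is also the host of a miRNA cluster, so its mature miRNAs in WT small RNA are shown here with the seed (bases 2 to 8) in capitals. The sequences are from RefSeq, build GRCm38.p6, minus strand of chromosome 5.
mmu-miR-106b-5p (chr5:138165787-138165807): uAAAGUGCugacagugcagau
mmu-miR-93-5p (chr5:138165574-138165596): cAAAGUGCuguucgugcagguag
mmu-miR-25-3p (chr5:138165332-138165353): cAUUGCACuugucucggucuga
The seed AAAGUGC is shared by miR-106b-5p and miR-93-5p, and miR-25-3p has another, AUUGCAC. In the WT small RNA library of 2594949 reads, miR-25-3p had 26234 reads (1.01%, exact 95% interval 0.999 to 1.02) and ranked 10 of 707 listed miRNAs. For miR-93-5p there were 12433 reads (0.479%) and for miR-106b-5p 8793 reads (0.339%). All 6 mature products of the cluster came to 48399 reads, or 1.87% of the table. Of the 6 listed miRNAs with a matched sequence that carry the seed AAAGUGC, miR-93-5p gave 30.0% of the reads and miR-106b-5p 21.2%; sequences were matched for 546 of the 707. The host transcript is thus one whose miRNAs are measured well above 0 in WT.

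The start of Mcm7 faces that of Ap4m1, a gene of the AP-4 adaptor complex, and the annotated starts lie 138 bases apart in RefSeq. Ap4m1 had 16.5 CPM in Dgcr8-/- cells and 8.69 CPM in Dicer-/- cells, against 9.06 CPM in WT. Its log2 ratio was 0.79 in Dgcr8-/- cells, where Mcm7 was at 0.87, and -0.05 in Dicer-/- cells, where Mcm7 was at 0.62. The pair were therefore both above WT in Dgcr8-/- cells, and Mcm7 without Ap4m1 in Dicer-/- cells. Their annotated spans overlap, and the sources used here do not say whether counting used strand. The same overlap with a coding gene holds for 13 members in all, Gins2, Orc1, Lig1 and Rpa1 among them.

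The remaining MCM-named genes are not part of the ring. Mcm8, which acts with MCM9 in recombination repair, had 19.3 CPM in Dgcr8-/- cells and 22.9 CPM in Dicer-/- cells, against 29.3 CPM in WT. Mcm9 had 8.18 CPM in Dgcr8-/- cells and 8.45 CPM in Dicer-/- cells, against 6.85 CPM in WT, and both its intervals include 1. Mcm10, an activator of the helicase, was at 116, 105 and 114 CPM in Dgcr8-/- cells, Dicer-/- cells and WT. The measured levels of Mcm8 and Mcm9 lay on opposite sides of WT, but at these counts the side of Mcm9 could not be resolved.

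CDC45 and the GINS tetramer complete the CMG helicase. Gins2 had 61.9 CPM in Dgcr8-/- cells and 32.5 CPM in Dicer-/- cells, against 132 CPM in WT. It was 2.13-fold lower (1.94 to 2.34) in Dgcr8-/- cells and 4.06-fold lower (3.63 to 4.55) in Dicer-/- cells, the lowest ratio of any member in both. Of all genes tested, 6.91% had a lower log2 ratio in Dgcr8-/- cells and 1.75% in Dicer-/- cells. Dgcr8-/- cells lay between the other libraries for Gins2.

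Gins4 and Gins3 followed Gins2 mainly in Dicer-/- cells. Gins4 had 86.3 CPM in Dgcr8-/- cells and 52.4 CPM in Dicer-/- cells, against 112 CPM in WT. Gins3 had 19.1 CPM in Dgcr8-/- cells and 10.4 CPM in Dicer-/- cells, against 24.5 CPM in WT, from 212, 128 and 243 counts. Gins1, the fourth subunit of the same tetramer, was not lower, at 44.3 CPM in Dgcr8-/- cells and 52.0 CPM in Dicer-/- cells, against 41.5 CPM in WT; with TMM scaling its log2 ratio in Dgcr8-/- cells turned to -0.02. Cdc45 had 69.7 CPM in Dgcr8-/- cells and 64.4 CPM in Dicer-/- cells, against 96.7 CPM in WT. Of the kinase subunits, Dbf4, the activator, had 125 CPM in Dgcr8-/- cells and 138 CPM in Dicer-/- cells, against 157 CPM in WT. Cdc7, the catalytic subunit, had 36.0 CPM and 27.3 CPM, against 40.4 CPM. The interval of its Dgcr8-/- ratio, 0.773 to 1.03, includes 1, and its Dicer-/- ratio was 0.676 (0.583 to 0.783).

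The polymerase genes lay on both sides of WT. Pold1, the catalytic subunit of polymerase delta, had 136 CPM in Dgcr8-/- cells and 147 CPM in Dicer-/- cells, against 99.8 CPM in WT, a ratio of 1.36 (1.26 to 1.48) and of 1.47 (1.36 to 1.59). Pola1, the catalytic subunit of polymerase alpha, was at 98.2 CPM in Dgcr8-/- cells and 106 CPM in Dicer-/- cells, against 83.0 CPM in WT. Pole, the catalytic subunit of polymerase epsilon, was nearly level, at 130.4 CPM in Dgcr8-/- cells and 120.5 CPM in Dicer-/- cells, against 128 CPM in WT. Prim1, the catalytic primase subunit, was at 66.7, 63.9 and 64.3 CPM in the same order. The catalytic subunits were thus above or near WT, with Pole and Prim1 slightly below it in both knockouts once TMM scaling was applied.

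Several accessory subunits of the same enzymes were lower. Prim2, the regulatory primase subunit, had 47.6 CPM in Dgcr8-/- cells and 42.7 CPM in Dicer-/- cells, against 71.2 CPM in WT. Pole4 and Pole3, the histone-fold pair of polymerase epsilon, were at 47.8 and 11.6 CPM in Dgcr8-/- cells and at 53.5 and 10.5 CPM in Dicer-/- cells, against 85.3 and 18.02 CPM in WT. Pole2 was at 33.8 CPM in Dgcr8-/- cells and 25.7 CPM in Dicer-/- cells, against 39.8 CPM in WT. Pold4, the small subunit of polymerase delta, had only 54 counts in Dgcr8-/- cells and 38 in Dicer-/- cells, against 74 in WT, and its 2.41-fold difference in Dicer-/- cells has a wide interval (1.61 to 3.67). Pold3 was not among them and had 92.2 CPM in Dgcr8-/- cells and 86.03 CPM in Dicer-/- cells, against 79.8 CPM in WT. Pola2 and Pold2 were lower in Dicer-/- cells, at log2 ratios of -0.49 and -0.24, and at -0.04 and 0.19 in Dgcr8-/- cells.

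RPA coats single-stranded DNA as a trimer, and its 3 genes lay on different sides of WT. Rpa1, the large subunit, had 282 CPM in Dgcr8-/- cells and 202 CPM in Dicer-/- cells, against 358 CPM in WT. Rpa2, the subunit phosphorylated under replication stress, was higher in both, at 180.2 CPM in Dgcr8-/- cells and 164 CPM in Dicer-/- cells, against 122 CPM in WT. Rpa3, the smallest, had 33.6 CPM in Dgcr8-/- cells and 53.0 CPM in Dicer-/- cells, against 43.3 CPM in WT. Thus each subunit gave another order of the 3 libraries.

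PCNA is the sliding clamp and a common marker of proliferating cells. Pcna was close to level, at 488 CPM in Dgcr8-/- cells and 458 CPM in Dicer-/- cells, against 451 CPM in WT, and with TMM scaling both log2 ratios turned slightly negative, to -0.0026 in Dgcr8-/- cells and -0.08 in Dicer-/- cells. Among its loaders, Rfc2 had 102 CPM in Dgcr8-/- cells and 73.6 CPM in Dicer-/- cells, against 151 CPM in WT. Rfc4 had 43.7 CPM in Dgcr8-/- cells and 51.5 CPM in Dicer-/- cells, against 65.9 CPM in WT. Rfc3 was near WT in both, at 64.7, 54.1 and 57.7 CPM in Dgcr8-/- cells, Dicer-/- cells and WT. The large subunit gene Rfc1 was at log2 ratios of -0.36 and -0.40 in the Dgcr8 and Dicer knockouts, and Rfc5 at -0.12 and -0.29.

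FEN1, a flap nuclease, and LIG1, a ligase, act one after the other on Okazaki fragments, and their genes lay on opposite sides of WT. Lig1 had 282 CPM in Dgcr8-/- cells and 237 CPM in Dicer-/- cells, against 530.4 CPM in WT, 1.88-fold lower (1.80 to 1.97) and 2.24-fold lower (2.14 to 2.34). Fen1 had 125 CPM in Dgcr8-/- cells and 127 CPM in Dicer-/- cells, against 104 CPM in WT. Each gene had both knockouts on the same side.

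**Figure D4:**
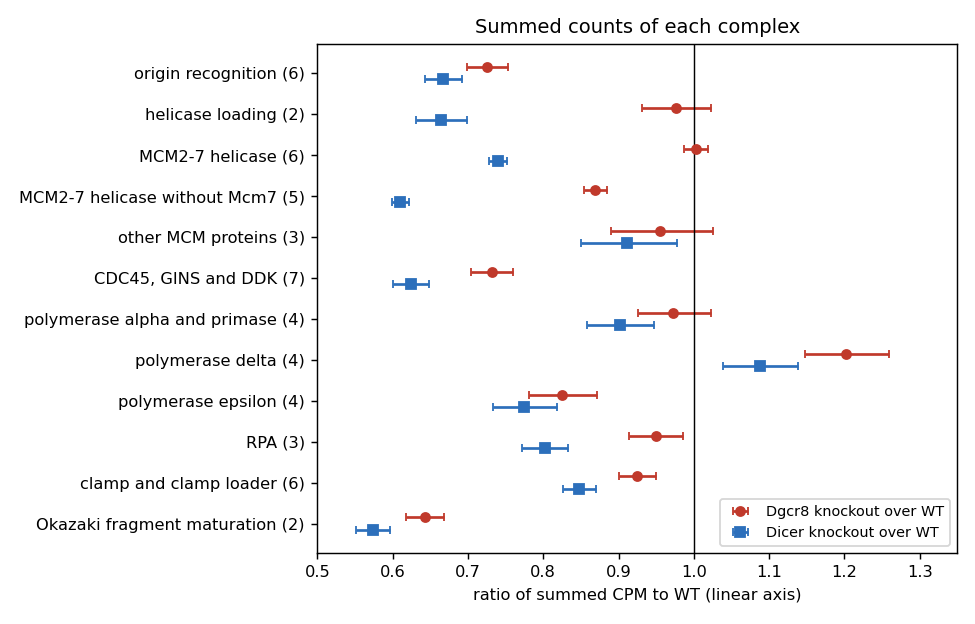
Ratio of the summed CPM of each complex to WT (linear axis, number of genes in parentheses) in Dgcr8-/- cells (red) and Dicer-/- cells (blue), with exact 95% counting intervals. MCM2-7 is near 1 in Dgcr8-/- cells with Mcm7 (3110.3 against 3102 CPM) and at 0.869 without it; polymerase delta is the one complex above 1 in both, at 1.20 and 1.09, or 1.11 and 1.01 with TMM scaling.

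Summed by complex, polymerase delta was above WT in both knockouts, at 385 CPM in Dgcr8-/- cells and 348 CPM in Dicer-/- cells, against 319.99 CPM in WT, a ratio of 1.20 and 1.09; with TMM scaling the ratios were 1.11 and 1.01. The lowest ratio to WT in both knockouts was that of the Okazaki fragment genes, at 407 CPM in Dgcr8-/- cells and 364 CPM in Dicer-/- cells, against 634 CPM in WT, which rests on Lig1. CDC45, GINS and the CDC7-DBF4 kinase summed to 442 CPM in Dgcr8-/- cells and 377 CPM in Dicer-/- cells, against 604 CPM in WT. In Dicer-/- cells, the origin complex, the loaders, MCM2-7 and the CDC45 group had ratios of 0.624 to 0.739, below those of the polymerases, 0.775 to 1.09. Dgcr8-/- cells did not show this order: the loaders were at 0.976 and MCM2-7 at 1.003, above polymerase epsilon at 0.825 and polymerase alpha with primase at 0.973.

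The knockouts were compared with each other without the WT library. Of 47 members, 36 were higher in Dgcr8-/- cells than in Dicer-/- cells and 11 lower, beside 50.3% and 49.7% of all 12986 genes tested in this pair. The members' median log2 ratio was 0.16, against 0.00 for all genes. By size, 0 members were at least 2-fold higher, beside 4.15% of all genes, and 0 at least 2-fold lower, beside 5.05%. Gins2 (log2 ratio 0.91), Mcm5 (0.90), Gins3 (0.82) and Gins4 (0.71) were the highest, and with Cdt1 (0.62) they were the 5 members at least 1.5-fold higher, beside 12.6% of all genes; 1 member, Rpa3, was at least 1.5-fold lower, beside 12.5%. All 6 MCM2-7 genes were higher in Dgcr8-/- cells, from 0.21 for Mcm3 to 0.90 for Mcm5. At the other end Rpa3 was 0.64 lower on the log2 scale in Dgcr8-/- cells than in Dicer-/- cells (ratio 0.635, 0.557 to 0.722), followed by Orc4, with a ratio of 0.748.

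Genes that work beside this machinery were described from lists of textbook factors. For their counts at 2-fold, the shares of all genes are those given above, 14.3% higher and 8.02% lower in Dgcr8-/- cells and 16% higher and 9.7% lower in Dicer-/- cells; lists this short cannot be set apart from them by such counts. Of 11 firing and fork protection factors, 0 were at least 2-fold higher and 0 lower in Dgcr8-/- cells, and 1 was higher and 1 lower in Dicer-/- cells, with medians of 0.23 and 0.16. Rif1, a timing factor, was at log2 ratios of 0.83 in Dgcr8-/- cells and 1.28 in Dicer-/- cells, and Tipin, of the fork protection complex, at -0.85 and -1.26. Clspn, a checkpoint mediator, was at 0.87 and 0.39, and Recql4 at -0.22 and -0.61. In the list of licensing inhibitors and turnover factors, 2 of 9 were at least 2-fold higher in Dgcr8-/- cells, Skp2 (log2 ratio 1.10) and Fzr1 (1.003), and 0 in Dicer-/- cells, where they were at 0.997, just under the line, and 0.66. Dtl was at 0.62 and -0.04 in the Dgcr8 and Dicer knockouts, and Cul4b at -0.28 and 0.19. The 8 genes of alternative clamp loaders and of the checkpoint clamp had medians of -0.27 and -0.14 and no member at 2-fold. The clamp genes were Hus1, at -0.42 and -0.78, Rad1, at -0.51 and -0.30, and Rad9a, at -0.41 and -0.32. Of the loader genes, Chtf18 was at 0.60 and 0.20, Chtf8 at 0.37 and 0.16 and Dscc1 at -0.01 and 0.02. Atad5 was at -0.12 and 0.32 and Rad17 at -0.47 and -0.54.

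Nucleotide supply was led by Rrm2b, a p53-responsive subunit of ribonucleotide reductase, with 216 counts in Dgcr8-/- cells and 395 in Dicer-/- cells, against 61 in WT. It was the only 1 of 11 at 2-fold in either knockout, and the list's medians were 0.01 in Dgcr8-/- cells and 0.22 in Dicer-/- cells. Rrm1, the large subunit, had log2 ratios of 0.87 and 0.71, Dctd 0.77 and 0.37 and Dut -0.37 and -0.77. Samhd1, whose enzyme breaks deoxynucleotides down and does not supply them, was at 0.98 and 0.81. Of 8 genes for histone deposition, Asf1b was the only one at 2-fold, at 0.45 in Dgcr8-/- cells and -1.004 in Dicer-/- cells; Nasp was at -0.76 in Dgcr8-/- cells and -0.54 in Dicer-/- cells, Cabin1 at 0.71 and 0.29 and Asf1a at 0.45 and 0.56. The list had medians of 0.24 in Dgcr8-/- cells and -0.24 in Dicer-/- cells. The 10 cohesin genes had medians of 0.18 and 0.08 with no member at 2-fold; Wapal was at 0.80 and 0.93, Nipbl at 0.56 and 0.48, Esco1 at 0.15 and 0.51 and Esco2 at -0.49 and -0.27.

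Of 13 translesion and repair polymerases, 2 were at least 2-fold higher and 0 lower in Dgcr8-/- cells (median 0.10), and 2 higher and 2 lower in Dicer-/- cells (median -0.12). Rev3l, the catalytic subunit of polymerase zeta, was at 1.29 in Dgcr8-/- cells and 1.20 in Dicer-/- cells, while its partner Mad2l2 was at -0.62 and -1.61. Polq was at 1.37 and 0.96, and Polk at 0.90 and 1.27. Poln, the other one counted as lower, had only 10, 0 and 10 counts in Dgcr8-/- cells, Dicer-/- cells and WT. None of 11 genes for topoisomerases, nick sealing, RNase H2 and the nuclease DNA2 reached 2-fold. Their medians were 0.26 in Dgcr8-/- cells and 0.28 in Dicer-/- cells. Dna2 was at 0.97 and 0.28 and Rnaseh2b, of RNase H2, at 0.46 and 0.70. Xrcc1 was at 0.60 and 0.49, Lig3 at 0.55 and 0.49 and Parp1 at 0.07 and -0.55. Of 7 checkpoint genes, Wee1 alone was at least 2-fold higher, at 1.24 in Dgcr8-/- cells and 1.30 in Dicer-/- cells. Atrip was at -0.59 and -0.58, Cdc25a at -0.24 and 0.12 and Rad9b at 0.01 and -0.22, and the list's medians were 0.01 and -0.05.

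The list of E2F, pocket protein and S-phase cyclin genes had medians above the background. Over 10 genes they were 0.79 in Dgcr8-/- cells and 0.62 in Dicer-/- cells, against 0.11 and 0.10 for all genes, and 2 genes passed 2-fold upward and 0 downward in each, beside 14.3% and 16% of all genes upward. These were Rbl2, a pocket protein that represses E2F targets, with 37.4 CPM in Dgcr8-/- cells and 24.5 CPM in Dicer-/- cells, against 8.66 CPM in WT, and the cyclin gene Ccne2, at log2 ratios of 1.13 and 1.15. E2f3 was at 0.88 and 0.99, Cdk2 at 0.91 and 0.45 and Rb1 at -0.35 and 0.68. Not all members were above the background in both knockouts. Ccna2 was at 0.10 and 0.16, Ccne1 at 0.17 and -0.12 and E2f2 at 0.75 and 0.03. Rb1 was likewise below the background in Dgcr8-/- cells alone. The 13 mitotic genes had medians of 0.21 in Dgcr8-/- cells and -0.06 in Dicer-/- cells. Cenpa was at -1.26 and -0.68, Birc5 at -0.99 and -1.27, Aurka at 0.83 and 0.04 and the proliferation marker Mki67 at 0.70 and 0.45. No list had a median as low as that of the replication genes in Dicer-/- cells. In Dgcr8-/- cells only the list of alternative clamp loader and checkpoint clamp genes had a lower one. Its clamp genes were below WT there, and its loader genes lay on both sides.

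**Figure D5:**
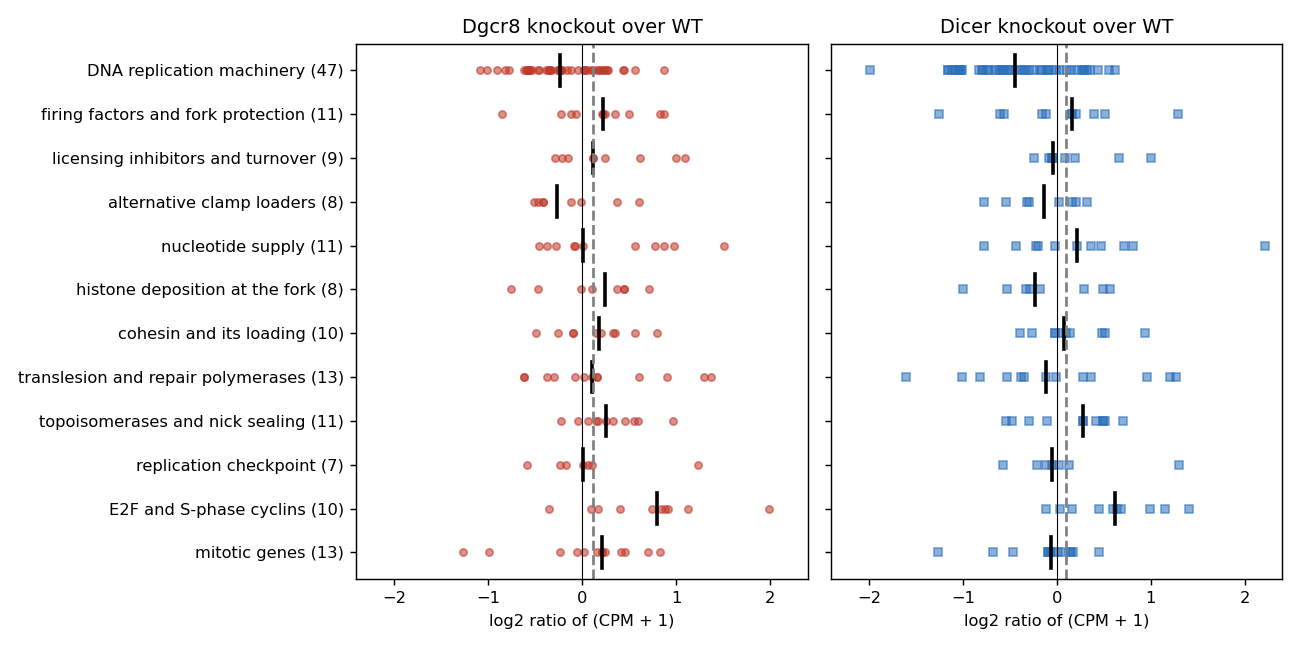
Log2 ratio of (CPM + 1) to WT of each gene (points) in the replication set and in 11 lists of related genes, with the median of each as a black bar, in Dgcr8-/- cells (left) and Dicer-/- cells (right). The list labelled alternative clamp loaders also holds checkpoint clamp genes, and that of topoisomerases and nick sealing also holds RNase H2 genes and Dna2. The grey dashed line is the median of all genes tested, 0.11 and 0.10; the replication genes have medians of -0.23 and -0.45, and E2F and S-phase cyclin genes 0.79 and 0.62.

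The promoters of many members hold the letters of E2F-type sites. RefSeq promoter windows, from 250 bases before to 50 after the annotated start, were found for 40 of the 47 genes; Gins1, Gins2, Gins4, Mcm4, Pole, Prim2 and Rfc2 have none in the table used. The letters TTTCCCGC, TTTCGCGC, TTTGCCGC or TTTGGCGC were searched on both strands; matches on opposite strands can overlap. They occurred in 36% of the 50 windows of members (17 genes), against 2.26% of all 32851 windows and 3.87% of windows of genes in the mRNA table. The CCAAT box, CCAAT on either strand, occurred in 52% of member windows, 37.4% of all windows and 37.8% of windows of genes in the mRNA table. The CHR element, TTTGAA on either strand, occurred in 16% of member windows, 17.9% of all windows and 11.6% of windows of genes in the mRNA table, so its share lay between these backgrounds.

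The stretches below show the matches in capitals, 5′ to 3′ on the strand of the gene, for members whose values are described above (RefSeq, GRCm38.p6).
Mcm3 (chr1:20820263-20820309, minus strand): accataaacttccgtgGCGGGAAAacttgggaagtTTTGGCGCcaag
Mcm5 (chr8:75109340-75109383, plus strand): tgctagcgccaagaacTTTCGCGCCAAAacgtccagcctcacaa
Mcm6 (chr1:128359792-128359831, minus strand): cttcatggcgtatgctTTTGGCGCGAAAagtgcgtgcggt
Orc1 (chr4:108579411-108579450, plus strand): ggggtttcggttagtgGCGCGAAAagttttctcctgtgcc
Cdc6 (chr11:98907997-98908036, plus strand): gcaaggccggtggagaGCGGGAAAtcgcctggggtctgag
Cdt1 (chr8:122568031-122568064, plus strand): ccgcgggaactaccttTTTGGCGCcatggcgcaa
Gins3 (chr8:95633502-95633541, plus strand): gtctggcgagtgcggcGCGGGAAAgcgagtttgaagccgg
Lig1 (chr7:13278836-13278875, plus strand): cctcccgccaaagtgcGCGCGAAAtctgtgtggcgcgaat
In Mcm5 and Mcm6 matches on both strands overlap. Mcm7 has windows for 2 annotated starts; the one with a match is shown whole, and the other, at chr5:138171217-138171516, holds none.
Mcm7 (chr5:138171834-138172133, minus strand): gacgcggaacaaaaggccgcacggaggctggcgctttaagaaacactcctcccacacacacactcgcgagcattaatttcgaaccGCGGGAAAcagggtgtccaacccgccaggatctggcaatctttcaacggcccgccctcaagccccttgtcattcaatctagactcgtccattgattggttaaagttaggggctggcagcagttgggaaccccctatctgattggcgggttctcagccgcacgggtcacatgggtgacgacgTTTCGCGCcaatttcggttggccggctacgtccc

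Members with a match were found on both sides of WT. The 17 genes with a match had median log2 ratios of -0.23 in Dgcr8-/- cells and -0.59 in Dicer-/- cells, and the 23 genes with a window but no match had -0.16 and -0.24. Mcm7, Pold1 and Pola1, all above WT in both knockouts, have a match, and so do Orc1, Lig1 and Mcm5. A match describes letters in a window and does not show binding.

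Some members share a start region with a gene on the other strand, within 1000 bases, and 7 of these neighbours are in the mRNA table. Of those below, Rars2, Smyd4, Tmem258, Prpf38a and Mbd5 overlap their member in annotated span, and Slc25a40 does not. Whether overlapping pairs share counted reads was not examined, since the use of strand in counting is not known. Rars2, which faces Orc3, was at log2 ratios of -0.87 in Dgcr8-/- cells and -1.48 in Dicer-/- cells, where Orc3 was at -0.78 and -0.78. Smyd4, which faces Rpa1, was at -0.55 and -1.004, where Rpa1 was at -0.34 and -0.82. Other pairs went apart: Slc25a40 was at 1.25 in Dgcr8-/- cells and 2.01 in Dicer-/- cells while Dbf4 was at -0.33 and -0.18, and Tmem258 was at -0.57 and -0.56 while Fen1 was at 0.27 and 0.29. Prpf38a was at -0.38 and -0.32 beside Orc1 at -1.01 and -1.03, and Mbd5, with 62, 52 and 20 counts in Dgcr8-/- cells, Dicer-/- cells and WT, was above WT where Orc4 was at -0.26 and 0.15.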

How the data were processed

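RNA was extracted with Trizol, and stranded libraries were made from polyadenylated RNA, per the labels' protocols. The submitters' processing notes name Bowtie and mm9. The sources used here name no counting tool, annotation or use of strand. The deposited mRNA table holds raw counts per RefSeq entry, and the deposited small RNA table raw counts per mature miRNA. Empty cells (221 in Dgcr8-/- cells, 138 in Dicer-/- cells, 252 in WT) were read as 0.

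Counts were scaled to CPM. Log2 ratios used a pseudocount of 1 CPM (low genes then appear to change less than they do), a floor of 1 CPM and a call at 2-fold. Intervals are exact (SciPy 1.17.1) and cover counting error only. If each read pair was counted as 2 reads they are too narrow: 74.8%, 69.7% and 69.6% of counts from 2 to 9 are even in Dgcr8-/- cells, Dicer-/- cells and WT. TMM used edgeR 4.0.16. Members, lists and settings were chosen with earlier results of these data known. Genes given with values are the 12 furthest from WT at 5 CPM or more, the extremes of each complex, the 4 furthest apart between the knockouts, Pcna, MCM2-7 and, per list, the 4 furthest from WT plus any needed for both directions; other members were added for completeness. The calculation was tested on simulated data. Promoter, miRNA and neighbour data are from RefSeq, GRCm38.p6, since no mm9 genome was used here.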

Additional observations from a re-analysis of the deposited data

Results flagged for a closer look

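Rpa3 and Mcm2 lay on opposite sides of WT in the knockouts, with counting intervals clear of 1 under each of the 3 scalings. Rpa3 had a ratio to WT of 0.777 in Dgcr8-/- cells and 1.22 in Dicer-/- cells (1.08 to 1.39 before rescaling), and the log2 ratio of Dgcr8-/- cells to Dicer-/- cells was -0.64. Mcm2 had a ratio to WT of 1.20 in Dgcr8-/- cells and 0.896 in Dicer-/- cells, and the log2 ratio between the knockouts was 0.42. With 1 library per group these differences were not tested. The interval of Rpa3 in Dicer-/- cells starts at 1.001 with median-ratio scaling and 1.005 with TMM scaling; with all counts halved, as if each read pair had been counted as 2 reads (chosen after seeing the data), it starts at 1.03 without rescaling and at 0.9499 and 0.954 with median-ratio and TMM scaling, and so holds 1 under both.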

How the results depend on the processing

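No paired analysis was possible because each group has 1 library and no result comes from a test. The median of the members in Dgcr8-/- cells over WT moved to -0.37 with median-ratio scaling, which lowers all genes of that library alike; with TMM scaling it was -0.35, and in Dicer-/- cells the median was -0.55 with TMM and -0.56 with median-ratio scaling. The number of members at least 2-fold lower in Dicer-/- cells was 5 with a pseudocount of 5 CPM, 18 at 1.5-fold and 0 at 4-fold, and in Dgcr8-/- cells it was 1, 7 and 0. The shares of all genes at 1.5-fold are given above. They were not computed with a pseudocount of 5 CPM or at 4-fold, settings that can lower the counts among all genes as well. At 1.5-fold, 1 member was higher in Dgcr8-/- cells, 1 was higher in Dicer-/- cells, and between the knockouts 5 were higher and 1 lower. A floor, a wider reading of the names (49 genes) and leaving out Mcm8, Mcm9, Pole3 and Pole4 kept each count within 1.5 times. Of 99 ratios of the members picked by the naming rule, 6 changed sign under some alternative, and the largest of these is 0.11 in size as reported. The other members were left out of that count. Over all 47, the number above WT in Dgcr8-/- cells fell from 17 to 11 with TMM scaling, which also moved the median of all genes by -0.11. With 1 library each, spread between cultures cannot be measured, and depth limits Pold4 and Mcm9 most.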
